A study of Mus musculus with 53 samples.

Results

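The lungs compared here came from mice that had breathed forced air, the sham procedure of a cigarette smoke study, for 24 weeks or for 2 weeks. The samples were chosen by their labels, 6 labelled forced air at 24 weeks and 6 labelled forced air at 2 weeks, out of 53 in the series. Each array held RNA from the small lung lobe of a female C57BL/6 mouse, and both groups were treated alike. Air was given nose-only for 2 hours per day on 5 days per week, without smoke. Total RNA of each sample was amplified and hybridised to an Affymetrix Mouse 430 2.0 array. Smoke-exposed mice of the same weeks (6 at 24 weeks and 6 at 2 weeks, 4% mainstream smoke on the same schedule) show the change over the same time without sharing an array with the forced air groups. The label called age holds the weeks of exposure, and the age of the mice themselves is not given, so that age and weeks of sham procedure cannot be told apart. Beside these groups, 6 mice with 12 weeks of forced air and 6 untreated mice, with no sham procedure, are given for some genes. The untreated mice are labelled with a time of 0, so that they differ from the forced air groups in both time and procedure. The titles hold a letter that goes with the group and a number after it, which the labels do not explain, and p-values measure the spread between these samples. Lung tissue is a mixture of cells, in which fewer cells of a type and less RNA per cell cannot be told apart.

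The young adult lung has finished dividing its air spaces into alveoli, and the elastin and collagen that hold them open turn over slowly. Lymphocytes and plasma cells, which secrete antibody, enter the lung with age and antigen. Most tissues also carry a clock, in which the proteins of Arntl, Clock and Npas2 switch on genes such as Dbp and Tef, so that a lung's level of these genes depends on the hour at which it was taken. The hour is not given in the labels.

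The tissue was lung by its defining genes. Sftpc of alveolar type 2 cells, Scgb1a1 of club cells, Ager of alveolar type 1 cells, Foxj1 of ciliated cells and Pecam1 of endothelium were each called present on all 12 arrays, with signals from 59.1 for Foxj1 to 4918 for Sftpc. Between 71.4% and 75.2% of probe sets were called present at 24 weeks, and between 69.8% and 74.4% at 2 weeks. The median signal of an array ran from 38.3 to 41.4 at 24 weeks and from 32.7 to 38.6 at 2 weeks. The groups differed in the ratio of 3′ to 5′ signal of control genes, which RNA integrity and amplification affect. The Gapdh ratio ran from 1.46 to 1.53 at 24 weeks and from 1.61 to 2.08 at 2 weeks, with no overlap, and the actin ratio from 1.67 to 1.90 at 24 weeks and from 1.83 to 2.55 at 2 weeks. In smoke-exposed mice the Gapdh ratios of the weeks overlapped (1.40 to 1.69 at 24 weeks, 1.54 to 1.71 at 2 weeks). The sample titles also end in numbers that the labels do not explain. For a comparison within a part of their span, these were divided into a low, a middle and a high range, whose limits were set here and not by the labels. Of the 24-week arrays 4 lay in the low and 2 in the middle range, and of the 2-week arrays 4 lay in the middle and 2 in the high range, so that a comparison of 2 with 4 arrays was possible within the middle range.

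**Figure D1:**
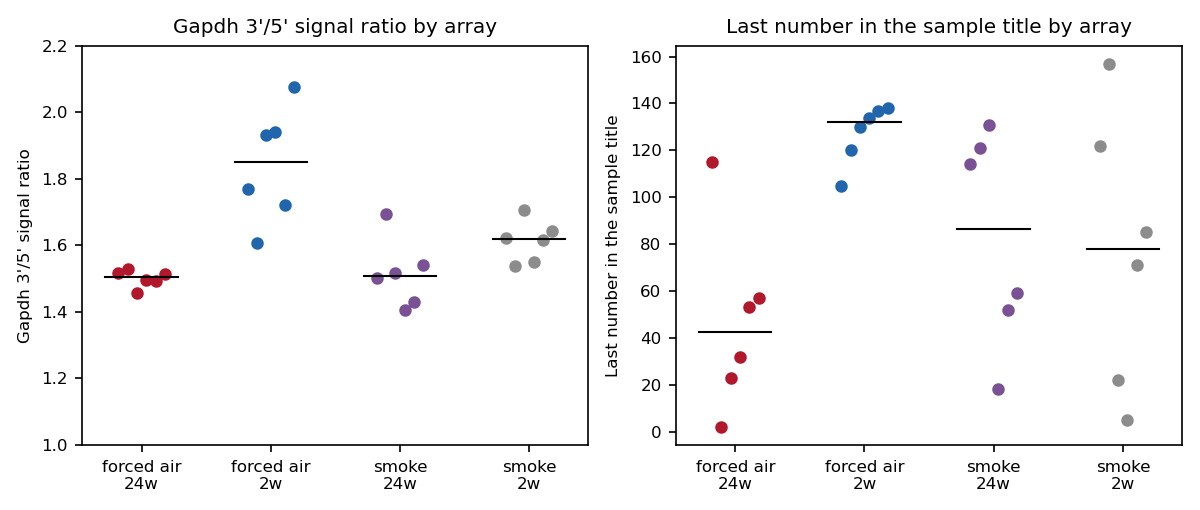
The Gapdh 3′/5′ signal ratio (left) and the last number in the sample title (right) of each array, in forced air and smoke groups at 24 and 2 weeks, with the median as a line. The ratios of the 24-week forced air arrays all lie under those of the 2-week forced air arrays, while those of the smoke groups overlap.

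An array of the 24-week group, replicate 4, stood apart through genes of fat cells. Adipoq, the hormone adiponectin of adipocytes, was at a signal of 1113 there, against at most 116 on the other 24-week arrays and 212 on the 2-week arrays. Ucp1, the uncoupling protein of brown fat, was at 175, against at most 10.7 on the other 24-week arrays and 9.66 on the 2-week arrays. Of 14 adipocyte genes tested 11 were highest of the 12 arrays on this one, while 14.0% of all genes were. Adipoq was higher there than on any other of the 53 arrays. The part of this array in the results was measured by leaving it out, and its values are given where they matter.

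Between 24 and 2 weeks of forced air 6109 of 15030 genes tested, 40.6%, passed at an adjusted p under 0.05 in limma, with 2813 higher at 24 weeks (18.7%) and 3296 lower (21.9%). The changes were small: the median absolute log2 change of the called genes was 0.31, 697 had at least 0.5 and 18 at least 1. These shares are the background for the counts of genes in lists given below. Over all 28410 kept probe sets with a gene symbol 6083 were higher and 4796 lower. The probe sets left aside for a brighter one of the same gene were called higher more often than lower (3305 higher and 1529 lower of 13380, median log2 change 0.09). The split of rises and falls therefore depends on which probe set stands for a gene. All 24-week arrays lay above all 2-week arrays for 1148 genes (7.64%) and below them for 1470 (9.78%). With the Gapdh and actin 3′/5′ ratios as covariates over all 53 arrays 3734 genes were called (24.8%, with 1504 higher and 2230 lower), and 3352 of these were among the 6109. Without replicate 4 of the 24-week group 2454 were higher and 3059 lower. Within the middle range of title numbers 2554 were called. In a fit of the 12 forced air arrays alone with the ratios as covariates, where ratio and group cannot be told apart, 3 genes were called, Ddc, Gbp2 and Igtp, all lower. In that fit 5708 of the 6109 genes had the same sign as before, with a median log2 change of 0.22 for the rises (beside 0.31) and -0.28 for the falls (beside -0.31). The 3′/5′ ratios moved with the groups, and their part in the result was not tested beyond these fits.

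Antibody genes led the rises at 24 weeks. Among the 12 genes that rose most were the µ heavy chain Ighm (Entrez gene 16019), the joining chain Jchain (Entrez gene 16069) of secreted antibody, and the light chain segments Igkv19-93, Igkv6-20, Igkv6-15, Igkv9-120 and Iglv1. Here and below, 3 values of a group are its lowest, median and highest signal over 6 arrays. Ighm signals were 112.2, 679 and 1553 in 24-week mice, against a range of 107 to 403 in 2-week mice (log2 change 1.65, SE 0.39, adjusted p = 0.000528). On 5 of 6 arrays of the 24-week group Ighm lay above all 2-week arrays, and replicate 2 lay within their range. Jchain had signals of 934, 1339 and 2571 in 24-week mice, against 364, 544 and 587 in 2-week mice (log2 change 1.47, SE 0.21, adjusted p = 2.55e-07), with no overlap. Igha, the heavy chain of mucosal antibody, overlapped on 1 array, at 629, 1275 and 2022 in 24-week mice, against 412, 648 and 796 in 2-week mice (log2 change 0.93, SE 0.18, adjusted p = 5.90e-05). The 5 light chain segments rose by log2 1.07 (Iglv1) to 1.73 (Igkv19-93), and their segments share sequence, so that a probe set may read several of them.

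Replicate 4 was the highest 24-week array for Ighm, Jchain, Igkv19-93 and Iglv1, and without it their log2 changes were 1.37, 1.30, 1.38 and 0.76, with adjusted p-values of 0.00422, 2.82e-06, 0.00487 and 0.164. Igkv6-15 and Igkv9-120 were no longer called without it (adjusted p = 0.0573 and 0.0819), nor with the 3′/5′ ratios as covariates (adjusted p = 0.201 and 0.153; 0.238 for Iglv1). With the title number ranges as a block the adjusted p was 0.0572 for Igkv9-120 and 0.0536 for Iglv1. Iglv1 also lost its call when 1 of 5 other arrays was left out, with adjusted p-values up to 0.117. Of the 18 immunoglobulin genes tested, gathered by symbol after their values were seen, 10 rose, 5 did so without replicate 4, and none fell. Of all genes 18.7% rose, and without replicate 4 2454 of 15030. In smoke-exposed mice 16 of the 18 rose between 2 and 24 weeks, with a median log2 change of 2.33, beside 0.93 in forced air. The share of all genes that rose in smoke was 9.77%. For 5 of the 18 the forced air change was lower than the smoke change in the test of the difference. That test called 578 of all 15030 genes as lower, and 6.41% in either direction.

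Of 19 B cell and plasma cell genes 6 rose and none fell, and 4 rose without replicate 4 and 4 with the ratios. Ighm, Jchain, Igha and Iglv1, described above, are among the 6, so that most of these rises are of immunoglobulin genes already counted. Pou2af1, a coactivator of B and plasma cells, rose (log2 change 0.73, SE 0.19, adjusted p = 0.00137), while Cd79a, a part of the antigen receptor on B cells, was at 51.1, 72.3 and 169 in 24-week mice, against 44.2, 92.7 and 156 in 2-week mice and was not called (log2 change -0.07, adjusted p = 0.809). As the background for this list and the next, 18.7% of all genes rose. Without replicate 4 the count was 2454 of 15030 genes, and with the ratios 1504. Of 19 T cell genes 7 rose and none fell, and 5 rose without replicate 4 and 3 with the ratios. Among them were Bcl11b, a transcription factor of T cells (log2 change 0.49, SE 0.14, adjusted p = 0.00331), and Cd3e, a part of the T cell receptor complex, whose signals of 244, 393 and 578 in 24-week mice, against 132, 267 and 486 in 2-week mice overlapped. The call of Cd3e (log2 change 0.59, adjusted p = 0.0446) ended when any of 7 arrays was left out, replicate 4 among them (adjusted p = 0.128), and with the ratios, where its log2 change was 0.59 (adjusted p = 0.145). Prg2, an eosinophil granule protein, was at 18.7, 22.8 and 70.4 in 24-week mice, against 3.44, 9.93 and 10.7 in 2-week mice, a rise (log2 change 0.83, adjusted p = 0.0164) with no overlap, whose adjusted p was 0.0764 without replicate 4 and 0.157 with the ratios.

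Lists of myeloid markers held few called genes, in both directions, and each had a smaller share called than the 40.6% of all genes. Of 17 alveolar macrophage markers 2 rose and 3 fell, of 19 monocyte and interstitial macrophage markers 2 and 2, of 16 lipid-laden macrophage genes 2 and 3, of 20 dendritic cell and class II genes 3 and 3, and of 16 neutrophil genes 1 and 2. C3ar1, the receptor of complement C3a on myeloid cells, rose at 24 weeks, with signals of 77.1, 91.5 and 114.3 in 24-week mice, against 41.4, 43.5 and 65.1 in 2-week mice (log2 change 0.78, SE 0.14, adjusted p = 1.07e-05). Its log2 change was 0.45 with the ratios and 0.38 with the ratios and the title number ranges as a block. Zbtb46, a transcription factor of dendritic cells, was at 909.8, 1020 and 1083 in 24-week mice, against 659, 762 and 849 in 2-week mice, a rise without overlap (log2 change 0.41, SE 0.07, adjusted p = 1.56e-05) that was called with the ratios as well (log2 change 0.35). Atp6v0d2, a proton pump subunit of macrophages, was at 273, 326 and 390.5 in 24-week mice, against 245, 259 and 305 in 2-week mice (log2 change 0.28, SE 0.10, adjusted p = 0.0185). Atp6v0d2 was not called with the ratios (adjusted p = 0.36), with the block (adjusted p = 0.0622) or without replicate 4 or 5 of the 24-week group (adjusted p = 0.0528 and 0.0648). The scavenger receptor gene Marco of alveolar macrophages fell (log2 change -0.68, SE 0.19, adjusted p = 0.00259), and so did Siglecf, a surface lectin of alveolar macrophages and eosinophils (log2 change -0.40, SE 0.10, adjusted p = 0.00179). Lgals3, or galectin 3, was at 631, 773 and 874 in 24-week mice, against 963, 1139 and 1303 in 2-week mice and fell without overlap (log2 change -0.57, SE 0.10, adjusted p = 6.30e-06). The class II antigen presentation gene H2-Ab1 fell also (log2 change -0.39, SE 0.08, adjusted p = 0.000226). The neutrophil attractant Cxcl2 was at 36.2, 128 and 259.7 in 24-week mice, against 14.5, 46.7 and 64.9 in 2-week mice, and rose (log2 change 1.29, SE 0.32, adjusted p = 0.000995), with 5 of 6 arrays of the 24-week group above all 2-week arrays. Of 26 chemokine genes 3 rose and 1 fell, a smaller share than the 40.6% of all genes called and, for the rises, than the 18.7% that rose. Ccl20, which attracts lymphocytes and dendritic cells, was called present on 3 of 6 arrays at 24 weeks and 2 of 6 at 2 weeks (log2 change 0.65, adjusted p = 0.00744). With the 3′/5′ ratios as covariates Marco and H2-Ab1 were no longer called (adjusted p = 0.0927 and 0.0799).

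**Figure D2:**
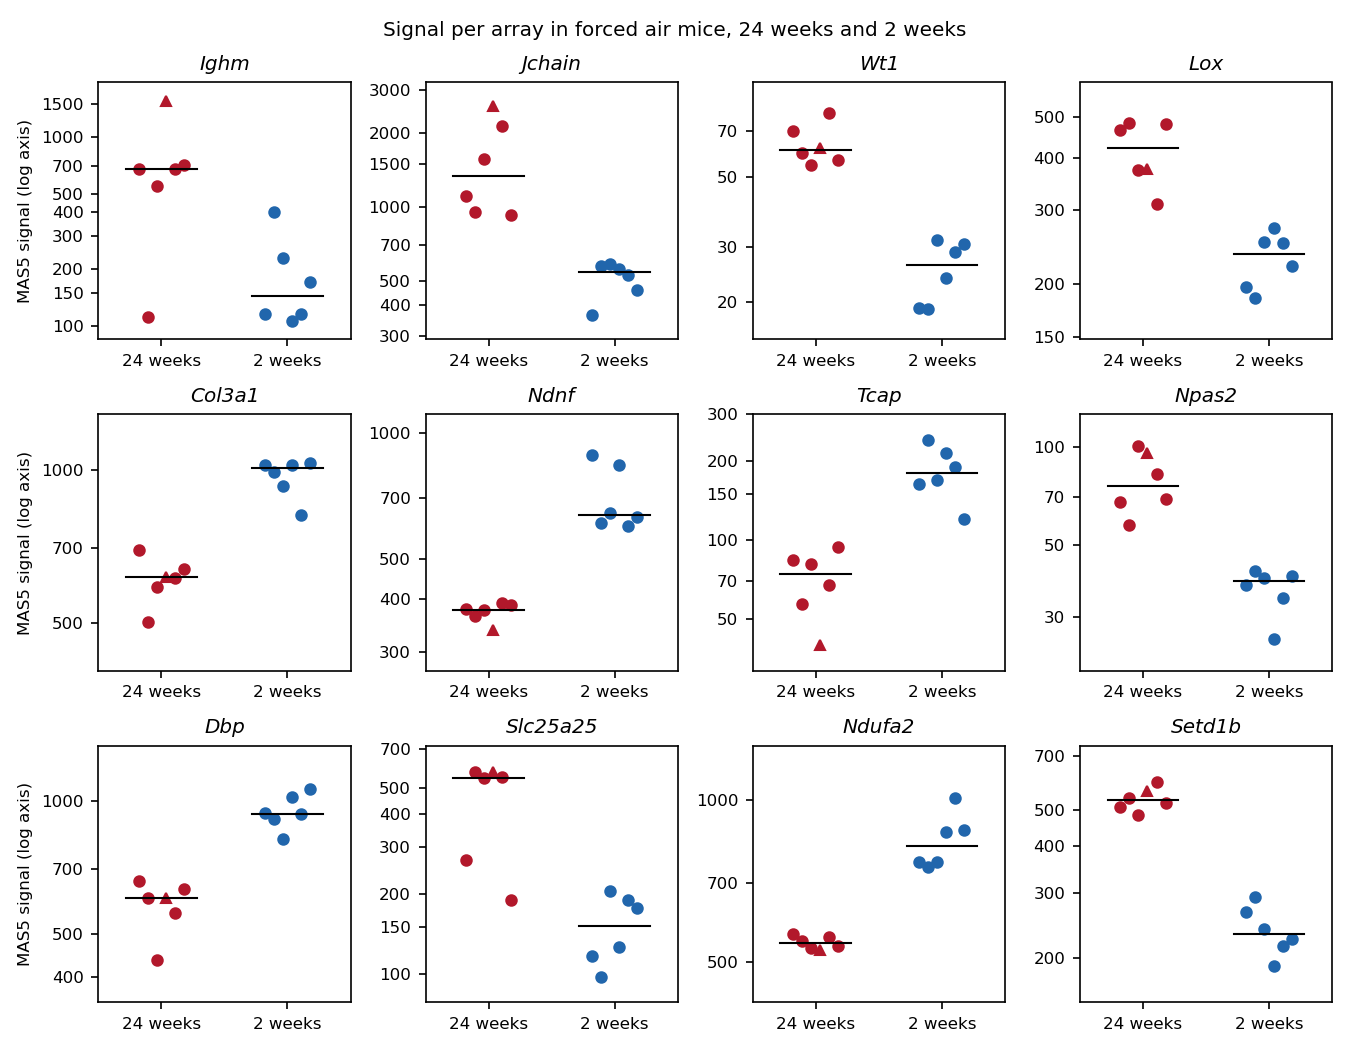
MAS5 signal (log axis) of 12 genes on each forced air array at 24 weeks (left, red) and 2 weeks (right, blue), with group medians as lines and replicate 4 of the 24-week group as a triangle. Ighm and Slc25a25 overlap between the groups, and the other 10 genes do not.

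Genes of the mesothelium, the cell sheet that covers the lung, rose more often than they fell at 24 weeks. Of 14 mesothelial markers 7 rose and 3 fell (median log2 change 0.19, beside 0.01 over all genes), and with the ratios 6 rose and 1 fell. Wt1 (Entrez gene 22431), the Wilms tumour transcription factor that marks mesothelial cells, was at 54.3, 60.7 and 79.7 in 24-week mice, against 19.1, 26.3 and 31.6 in 2-week mice. All 6 arrays of the 24-week group lay above the 2-week group, and the rise (log2 change 0.94, SE 0.09, adjusted p = 9.89e-11) was close to that with the ratios (0.92), without replicate 4 (0.95) and within the middle range of title numbers (1.01). Aldh1a2, which makes retinoic acid in mesothelial and stromal cells, rose without overlap (log2 change 0.51, SE 0.08, adjusted p = 4.18e-06), as did the transcription factor Bnc1 (log2 change 0.67, SE 0.16, adjusted p = 0.000589). The keratin gene Krt19, which epithelial cells also express, fell (log2 change -0.42, SE 0.10, adjusted p = 0.000313). With the ratios Bnc1 and Krt19 were no longer called (adjusted p = 0.0636 and 0.0789). In contrast with forced air, Wt1 had medians of 30.6 in 24-week and 29.5 in 2-week smoke-exposed mice and was not called (log2 change 0.01, adjusted p = 0.945), and the difference from the forced air change passed its test (log2 difference 0.93, adjusted p = 2.14e-05; 0.00015 with the ratios).

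Extracellular matrix genes rose in part and fell in part. The elastic fibre gene Ltbp4, which binds latent TGF-beta and guides elastin assembly, was at 169, 179 and 226 in 24-week mice, against 82.8, 92.4 and 119 in 2-week mice (log2 change 0.89, SE 0.08, adjusted p = 3.05e-12). Lox (Entrez gene 16948), the enzyme that cross-links elastin and collagen, was at 310.1, 421 and 482 in 24-week mice, against 185, 236 and 272 in 2-week mice (log2 change 0.80, SE 0.10, adjusted p = 2.00e-08). Elastin itself, Eln, was at 155, 189 and 254 in 24-week mice, against 121.6, 129 and 140.9 in 2-week mice (log2 change 0.56, SE 0.11, adjusted p = 3.48e-05). For all 3 genes the groups did not overlap, and their log2 changes were 0.81, 0.84 and 0.63 with the ratios and 1.08, 1.03 and 0.82 within the middle range of title numbers. In untreated mice the medians were 146, 498 and 308. Against these rises Fbln5, an elastin-binding fibulin, fell (log2 change -0.35, SE 0.05, adjusted p = 1.91e-07). Of 15 elastic fibre genes 4 rose and 5 fell, and 4 rose and 1 fell with the ratios. Among all genes 40.6% were called, and 24.8% with the ratios.

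Of 24 collagen genes 10 rose and 4 fell, beside 18.7% and 21.9% of all genes. With the ratios 4 rose and 3 fell, a share close to the 24.8% of all genes called. The fibrillar collagen gene Col1a1 was at 568, 666 and 765 in 24-week mice, against 418, 491 and 534 in 2-week mice (log2 change 0.45, SE 0.11, adjusted p = 0.00075). Col3a1 (Entrez gene 12825), its partner in soft tissue, was at 502, 614 and 695 in 24-week mice, against 815, 1007 and 1030 in 2-week mice (log2 change -0.66, SE 0.09, adjusted p = 2.35e-07). The groups did not overlap for either gene, and the directions were opposite. Col27a1 rose (log2 change 0.57, SE 0.10, adjusted p = 1.01e-05), and Col8a1, a network-forming collagen of vessels, rose as well (log2 change 0.54, SE 0.10, adjusted p = 2.19e-05), with a log2 change of 0.31 with the ratios (adjusted p = 0.028). Tnc, or tenascin C, a matrix protein of growing and injured tissue, was at 32.5, 40.0 and 47.2 in 24-week mice, against 49.7, 66.8 and 97.7 in 2-week mice and fell (log2 change -0.63, SE 0.14, adjusted p = 0.000216). Mmp2, the gelatinase of stromal cells, fell (log2 change -0.56, SE 0.12, adjusted p = 0.000257), and Tnxb, a tenascin of mature connective tissue, rose (log2 change 0.63, SE 0.17, adjusted p = 0.00177). With the ratios Col1a1 and Mmp2 were no longer called (adjusted p = 0.0571 and 0.0602).

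Ndnf (Entrez gene 68169), a secreted factor with neurotrophic activity, was at 337, 378 and 392 in 24-week mice, against 598, 636 and 887 in 2-week mice (log2 change -0.86, SE 0.08, adjusted p = 1.12e-11), with no overlap. Olfml3, a secreted matrix protein, was at 405, 452 and 614 in 24-week mice, against 811, 874 and 1163 in 2-week mice (log2 change -0.89, SE 0.11, adjusted p = 1.38e-08). The Wnt antagonist Sfrp1 rose (log2 change 0.60, SE 0.11, adjusted p = 1.15e-05), and the bone morphogenetic protein gene Bmp4 fell (log2 change -0.43, SE 0.10, adjusted p = 0.000279). Of 17 genes of the insulin-like growth factor axis 7 rose and 4 fell, beside 40.6% of all genes called. The receptor Igf1r rose (log2 change 0.50, SE 0.10, adjusted p = 0.000103), and the binding proteins Igfbp2 and Igfbp6 fell (log2 change -0.61, adjusted p = 1.07e-05 and -0.68, adjusted p = 4.82e-06), all without overlap of the groups. The ligand Igf1 was at 51.0, 68.5 and 139.4 in 24-week mice, against 61.5, 94.5 and 117.2 in 2-week mice and was not called (log2 change -0.20, SE 0.17, adjusted p = 0.36). Igf1 had medians of 332 in 24-week and 148 in 2-week smoke-exposed mice, where it rose (log2 change 1.06, SE 0.17, adjusted p = 6.51e-06), and the changes differed (log2 difference -1.26, adjusted p = 0.00145; 0.0015 with the ratios).

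Among the 12 largest falls were 3 genes of striated muscle, which in mouse lung lines the pulmonary veins: Tcap, Myoz2 and Tnni3. Tcap (Entrez gene 21393), which links the ends of titin in the sarcomere, was at 39.9, 74.2 and 94.1 in 24-week mice, against 120.5, 179 and 240.1 in 2-week mice, without overlap (log2 change -1.20, SE 0.22, adjusted p = 2.16e-05). Myoz2, which binds calcineurin at the sarcomere's Z-disc, was at 57.3, 125 and 149.7 in 24-week mice, against 178, 253 and 298 in 2-week mice (log2 change -1.0, SE 0.32, adjusted p = 0.00923), again without overlap. Tnni3, cardiac troponin I, was at 75.1, 140.1 and 190.4 in 24-week mice, against 176, 279 and 352 in 2-week mice (log2 change -0.91, SE 0.22, adjusted p = 0.000631). Hamp, the iron hormone hepcidin, which heart muscle makes as well as liver, was at 31.7, 75.2 and 104.6 in 24-week mice, against 123, 172 and 243 in 2-week mice (log2 change -1.12, SE 0.29, adjusted p = 0.00164). Of 17 cardiac muscle markers 2 fell, Tnni3 and Mybpc3, and none rose, with a median log2 change of -0.33 over the list, beside 21.9% of all genes that fell. Of 9 skeletal muscle markers 2 rose and none fell, beside 18.7% of all genes that rose. These were the calcium pump gene Atp2a1, at 15.9, 23.2 and 35.5 in 24-week mice, against 9.10, 16.2 and 21.5 in 2-week mice (log2 change 0.30, SE 0.10, adjusted p = 0.0144), and the creatine kinase gene Ckm, at 4.51, 11.7 and 14.1 in 24-week mice, against 2.38, 6.88 and 8.45 in 2-week mice (log2 change 0.23, SE 0.09, adjusted p = 0.0391). Neither was called with the ratios (adjusted p = 0.178 and 0.465), without replicate 4 (adjusted p = 0.0754 and 0.11) or after quantile normalization (adjusted p = 0.112 and 0.149). The call of Atp2a1 also ended without replicate 6 of the 2-week group, and that of Ckm without replicates 1, 2 or 4 of the 2-week or 2, 5 or 6 of the 24-week group. The atrial myosin light chain gene Myl7 was at 373, 761 and 919 in 24-week mice, against 1042, 1190 and 1492 in 2-week mice, apart but short of the threshold (log2 change -0.75, adjusted p = 0.0552). The heavy chain gene Myh6 was at 212, 475 and 614 in 24-week mice, against 390.5, 477 and 648 in 2-week mice (log2 change -0.15, adjusted p = 0.8). Replicate 4, the array with adipocyte genes, was the lowest of the 12 for Tcap, Myoz2, Tnni3, Hamp and Myl7. Without it Mybpc3 was not called (adjusted p = 0.096), and Tcap, Myoz2, Tnni3 and Hamp were still called, with log2 changes of -1.08, -0.85, -0.77 and -0.95. In smoke-exposed mice the 4 genes fell also (log2 changes -1.39, -1.17, -0.77 and -1.33). Of 16 smooth muscle and pericyte markers 1 rose and 6 fell, a share close to the 40.6% of all genes called. With the ratios 3 rose and 5 fell, beside 24.8% of all genes called. The rise was that of Notch3, the Notch receptor of mural cells, at 619, 672 and 686 in 24-week mice, against 351, 396 and 497 in 2-week mice (log2 change 0.70, SE 0.08, adjusted p = 3.43e-09), and the muscle intermediate filament gene Des fell most (log2 change -0.65, SE 0.13, adjusted p = 6.69e-05).

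Of 18 core clock genes 5 rose and 2 fell, a share close to the 40.6% of all genes called, and 3 rose and 1 fell with the ratios, beside 24.8% of all genes. Npas2 (Entrez gene 18143), a partner of Arntl, was at 57.3, 75.6 and 100.6 in 24-week mice, against 25.6, 38.6 and 41.6 in 2-week mice (log2 change 0.84, SE 0.14, adjusted p = 5.12e-06). Arntl was at 28.4, 39.9 and 48.3 in 24-week mice, against 14.6, 23.2 and 26.5 in 2-week mice (log2 change 0.50, SE 0.15, adjusted p = 0.00558). Clock was at 472, 488 and 507 in 24-week mice, against 319, 343 and 370.1 in 2-week mice (log2 change 0.50, SE 0.06, adjusted p = 2.88e-09). The 24-week arrays lay above the 2-week arrays for all 3. In untreated mice the medians of Npas2, Arntl and Clock were 124.9, 106.8 and 538.5, above those of both forced air groups. Rora, a nuclear receptor that activates Arntl, and Cry2, a repressor, rose by log2 0.26 and 0.22 (adjusted p = 0.00024 and 0.00997). Dbp (Entrez gene 13170), a transcription factor under control of the loop, was at 438, 604 and 659 in 24-week mice, against 818, 936 and 1066 in 2-week mice, a fall with no overlap (log2 change -0.69, SE 0.14, adjusted p = 0.00012). Its relative Tef, at 952, 1102 and 1203 in 24-week mice, against 1217, 1318 and 1473 in 2-week mice, fell less (log2 change -0.28, SE 0.09, adjusted p = 0.012). The tetraspanin gene Tspan4, listed among clock outputs, was at 318, 364 and 402 in 24-week mice, against 463, 519.9 and 586 in 2-week mice (log2 change -0.50, SE 0.09, adjusted p = 8.19e-06). Nr1d1, the repressor REV-ERB alpha, was at 140.5, 207 and 229.9 in 24-week mice, against 180.2, 222 and 236 in 2-week mice and was not called (log2 change -0.11, adjusted p = 0.566). With the ratios the log2 changes of Arntl, Cry2 and Tef were 0.45, 0.19 and -0.16, and they were no longer called (adjusted p = 0.0596, 0.0927 and 0.266), and the quantile-normalized fit did not call Tef (adjusted p = 0.0732).

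In smoke-exposed mice Npas2, Arntl, Clock, Dbp, Tef and Tspan4 were called in the same directions (log2 changes 1.0, 0.85, 0.32, -1.14, -0.32 and -0.54). Nr1d1 fell there, with medians of 87.4 in 24-week and 206 in 2-week smoke-exposed mice (log2 change -1.03, SE 0.15, adjusted p = 1.55e-06), and the difference from forced air passed its test (log2 difference 0.91, adjusted p = 0.00804). The hour of tissue collection is not given for any group, and its part in the result was not tested.

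The promoters of the core clock genes called in forced air, 5 that rose and 2 that fell, and of Tspan4 were read for 3 motifs. Of 13 clock output genes 3 rose and 2 fell, and among these only Tspan4 was read. Both strands were read in the 300 bases from 250 before to 50 after each RefSeq start on GRCm38.p6. The E-box, CACGTG, is the site of the Arntl complexes and stands in 7.15% of all such promoters. The D-box, TTANNTAA, is the site of Dbp and Tef and stands in 6.00%. The core of the Rora and REV-ERB site, AGGTCA, stands in 16.3%. A match is a run of letters and not a shown site. Arntl has 2 annotated starts, and the later window holds the AGGTCA core. Of 3 windows of Clock, 1 holds the AGGTCA core. A window of Tef holds a D-box and an E-box, its other window an E-box, and a window of Tspan4 an E-box. None of the 3 motifs was found in the windows of Npas2, Rora, Cry2 and Dbp. A window each of Arntl, which rose, and of Tef and Tspan4, which fell, is shown with the motif in capitals. These were taken from the windows that hold a motif, and windows without a motif are not shown.
Arntl, chr7:113207261-113207560, plus strand: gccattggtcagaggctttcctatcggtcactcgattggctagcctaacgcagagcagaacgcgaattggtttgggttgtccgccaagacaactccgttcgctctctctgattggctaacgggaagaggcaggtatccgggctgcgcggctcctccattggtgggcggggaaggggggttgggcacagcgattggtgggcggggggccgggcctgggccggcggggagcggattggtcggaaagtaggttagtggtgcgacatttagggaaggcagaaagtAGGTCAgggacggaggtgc
Tef, chr15:81802423-81802722, plus strand: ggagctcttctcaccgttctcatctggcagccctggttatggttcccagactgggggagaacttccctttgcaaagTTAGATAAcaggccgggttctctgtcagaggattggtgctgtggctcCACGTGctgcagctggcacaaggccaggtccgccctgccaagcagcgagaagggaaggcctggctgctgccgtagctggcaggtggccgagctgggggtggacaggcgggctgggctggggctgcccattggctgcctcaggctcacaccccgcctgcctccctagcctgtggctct
Tspan4, chr7:141476130-141476429, plus strand: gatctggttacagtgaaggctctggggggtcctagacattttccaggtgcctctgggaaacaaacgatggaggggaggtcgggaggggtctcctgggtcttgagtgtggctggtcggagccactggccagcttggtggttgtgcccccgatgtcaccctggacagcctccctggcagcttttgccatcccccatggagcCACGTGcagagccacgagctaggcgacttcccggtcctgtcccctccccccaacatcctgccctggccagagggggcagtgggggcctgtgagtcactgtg

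Slc25a25 (Entrez gene 227731), a mitochondrial carrier of ATP and phosphate, was at 191, 545 and 574 in 24-week mice, against 98.1, 152.1 and 206 in 2-week mice (log2 change 1.40, SE 0.40, adjusted p = 0.00447), with 5 of 6 arrays above the 2-week group and replicate 6 within it. Cyp26b1 (Entrez gene 232174), which breaks down retinoic acid, was at 79.04, 177 and 485 in 24-week mice, against 21.1, 79.5 and 103 in 2-week mice (log2 change 1.51, SE 0.46, adjusted p = 0.0069), with the lowest 24-week array within the 2-week range. Zbtb16, a transcription factor induced by glucocorticoids, was at 451, 576 and 1356 in 24-week mice, against 220.5, 286 and 400.1 in 2-week mice, without overlap (log2 change 1.13, SE 0.37, adjusted p = 0.0111). Of 18 glucocorticoid response genes 4 rose, close to the 18.7% of all genes that rose, and none fell. With Zbtb16 these were Pdk4, the kinase that shuts glucose carbon out of mitochondria (log2 change 0.59, SE 0.15, adjusted p = 0.00113), Hif3a (log2 change 0.56, SE 0.17, adjusted p = 0.0058) and the cell cycle inhibitor Cdkn1a (log2 change 0.32, SE 0.11, adjusted p = 0.0167). The widely used marker Fkbp5 was at 108, 159 and 188 in 24-week mice, against 106, 133 and 218 in 2-week mice and was not called (log2 change 0.12, adjusted p = 0.47). Hif3a was called present on 4 of 6 arrays at 24 weeks and 1 of 6 at 2 weeks. Ppargc1a, the coactivator that drives mitochondrial gene programs, rose (log2 change 0.58, SE 0.11, adjusted p = 2.10e-05). With the ratios Slc25a25 and Zbtb16 were no longer called (adjusted p = 0.151 and 0.332), while Cyp26b1 had a log2 change of 2.29. With the title number ranges as a block Zbtb16 had a log2 change of 0.66 and was not called (adjusted p = 0.073). Cdkn1a lost its call when replicate 2 of the 2-week or replicate 3 of the 24-week group was left out (adjusted p = 0.0565 and 0.0599).

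Setd1b (Entrez gene 208043), a histone H3 lysine 4 methyltransferase, was at 485, 531 and 595 in 24-week mice, against 190.1, 232 and 291 in 2-week mice, a rise without overlap (log2 change 1.13, SE 0.08, adjusted p = 4.15e-15). The myosin chaperone gene Unc45b and the microtubule protein gene Map1b, named after their values were seen, rose by log2 0.93 and 1.04 (adjusted p = 3.93e-15 and 1.81e-07). Of 16 senescence and p53 target genes 6 rose and 3 fell, beside 40.6% of all genes called. Zmat3, an RNA-binding p53 target, was at 353, 363 and 435 in 24-week mice, against 214, 226 and 304 in 2-week mice (log2 change 0.62, SE 0.09, adjusted p = 1.61e-07). Cdkn2b, an inhibitor of cyclin D kinases, moved the other way, at 177, 214 and 234 in 24-week mice, against 250.1, 295 and 353 in 2-week mice (log2 change -0.45, SE 0.10, adjusted p = 0.000439). Among the largest falls was Ddc (Entrez gene 13195), which makes dopamine and serotonin from their amino acids and marks neuroendocrine cells, at 19.8, 29.5 and 39.1 in 24-week mice, against 51.5, 73.5 and 78.7 in 2-week mice (log2 change -0.94, SE 0.11, adjusted p = 6.55e-09). The messenger RNA export factor Alyref was at 87.2, 96.3 and 118 in 24-week mice, against 163, 182 and 274 in 2-week mice (log2 change -0.89, SE 0.10, adjusted p = 8.57e-10). The groups did not overlap for either. Taf10, a subunit of TFIID, and Hcfc1r1, which regulates the host cell factor HCFC1, fell by 0.83 and 0.82 on the log2 scale (adjusted p = 2.33e-09 and 1.88e-05). All of these genes were still called with the ratios as covariates.

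Genes of mitochondrial respiration, the proteasome and the ribosome were lower at 24 weeks. Of 27 oxidative phosphorylation genes 24 fell and none rose (median log2 change -0.37), and with the 3′/5′ ratios 19 fell (median -0.23). Ndufa2, a subunit of complex I, was at 527, 542 and 565 in 24-week mice, against 749.5, 820.3 and 1006 in 2-week mice (log2 change -0.60, SE 0.07, adjusted p = 9.54e-10). Ndufb5, another subunit, was at 734, 767 and 844 in 24-week mice, against 1072, 1142 and 1300 in 2-week mice (log2 change -0.57, SE 0.08, adjusted p = 8.62e-08). Neither overlapped between the groups. Uqcc2, an assembly factor of complex III and the second largest fall, was at 90.9, 167 and 248 in 24-week mice, against 347, 367 and 452 in 2-week mice (log2 change -1.19, SE 0.24, adjusted p = 7.19e-05). Of 26 proteasome subunit genes 23 fell and 1 rose (median -0.36), and with the ratios 18 fell (median -0.22). Psmc1, an ATPase of the cap, was at 407, 485 and 555 in 24-week mice, against 691, 722 and 833 in 2-week mice (log2 change -0.60, SE 0.07, adjusted p = 7.97e-09), and Psmd12, another cap subunit, fell too (log2 change -0.50, SE 0.09, adjusted p = 1.56e-05). The ubiquitin-like splicing factor Ubl5 was at 136, 175 and 374 in 24-week mice, against 285, 392 and 676 in 2-week mice (log2 change -0.94, SE 0.27, adjusted p = 0.00407), and was not called with the ratios (adjusted p = 0.314).

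Of 19 cytosolic ribosomal protein genes 14 fell (median -0.31), but with the ratios as covariates 3 did (median -0.07), close to the 14.8% of all genes. After quantile normalization 13 fell (median -0.16). Rplp0, of the ribosome's stalk, was at 1133, 1260 and 1363 in 24-week mice, against 1591, 1665 and 2303 in 2-week mice (log2 change -0.51, SE 0.09, adjusted p = 4.90e-06). Rpl8, of the large subunit, was at 1020, 1097 and 1131 in 24-week mice, against 1375, 1409 and 1624 in 2-week mice (log2 change -0.42, SE 0.07, adjusted p = 1.51e-06), and neither gene overlapped. Of 25 lysosome genes 15 fell and 1 rose (median -0.25), and with the ratios 6 fell (median -0.09). The proton pump subunit Atp6v0d1 was at 358, 394 and 443 in 24-week mice, against 509, 591 and 623 in 2-week mice (log2 change -0.54, SE 0.06, adjusted p = 4.34e-10). In smoke-exposed mice 10 of the 27 respiratory genes, 5 of the 26 proteasome genes and 1 of the 19 ribosomal genes fell, and 7 of the 25 lysosome genes rose while 1 fell. The share of all genes that fell there was 8.58%, and 9.77% rose. The test of the difference called 13 proteasome genes and 14 lysosome genes as lower in forced air relative to smoke, beside 578 of all 15030 genes. With the ratios it called 169 of all genes as lower, and the lists were not counted in that fit. Psmc1 was not called there, while Atp6v0d1 was. The Gapdh and actin ratios moved with these lists in forced air, and their part in the result was not tested beyond the fit with covariates.

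**Figure D3:**
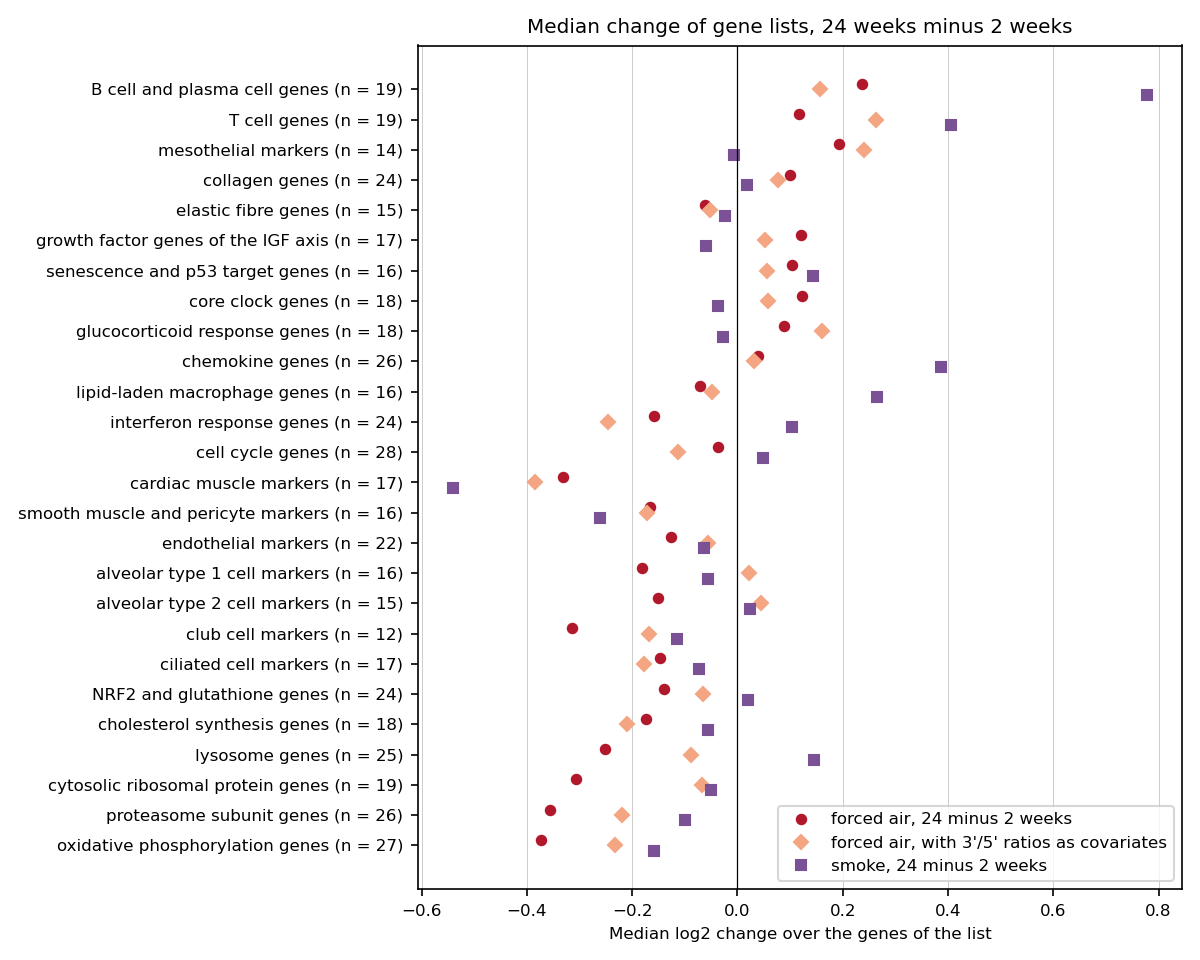
Median log2 change between 24 and 2 weeks over the genes of 26 lists, in forced air (circles), in forced air with the 3′/5′ ratios as covariates (diamonds) and in smoke (squares), with the number of genes tested beside each name. The respiratory and proteasome lists lie lowest in forced air, and these and the ribosomal list lie nearer 0 with the ratios as covariates.

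Epithelial and endothelial markers fell in part, beside 21.9% of all genes that fell, and 14.8% with the ratios. Quantile normalization, which sets the signals of all arrays to the same distribution, moved some of these lists. The median log2 change went from -0.18 to -0.05 for alveolar type 1 and from -0.15 to -0.04 for type 2 markers. It went from -0.13 to -0.05 for endothelial and from -0.31 to -0.22 for club cell markers. For ciliated cell markers it went the other way, from -0.15 to -0.18. Of 12 club cell markers 8 fell and none rose (median -0.31), with the ratios 5 fell, and in smoke-exposed mice 5 fell. The paraoxonase Pon1 and the aldehyde dehydrogenase Aldh1a7 fell without overlap (log2 change -0.47, adjusted p = 4.83e-05 and -0.45, adjusted p = 1.11e-08), while the secretoglobin Scgb1a1 was at 3222, 3360 and 3768 in 24-week mice, against 3231, 3586 and 4724 in 2-week mice and was not called (log2 change -0.10, adjusted p = 0.273). Of 16 alveolar type 1 markers 8 fell and 3 rose, and 2 rose and 5 fell with the ratios. The water channel gene Aqp5 was at 817, 956 and 1171 in 24-week mice, against 1270, 1398 and 1624 in 2-week mice (log2 change -0.55, SE 0.07, adjusted p = 6.36e-08). Ager was at 1634, 1929 and 2196 in 24-week mice, against 2211, 2340 and 3890 in 2-week mice (log2 change -0.42, SE 0.13, adjusted p = 0.00815), but had a log2 change of 0.01 with the ratios (adjusted p = 0.961), and an adjusted p of 0.0516 without replicate 6 of the 2-week group and of 0.0533 with the title number ranges as a block. The surfactant genes Sftpc and Sftpd of type 2 cells fell (log2 change -0.25, adjusted p = 0.0261 and -0.39, adjusted p = 0.000124). With the ratios Sftpc was at 0.04 (adjusted p = 0.733) and Sftpd had an adjusted p of 0.0524. Sftpc was not called either without replicate 6 of the 2-week group (adjusted p = 0.168) or without replicate 4 of the 24-week group (adjusted p = 0.0554), nor with the block (adjusted p = 0.102). Of 15 type 2 markers 6 fell and 1 rose, and with the ratios 1 fell, a smaller share than the 14.8% of all genes.

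Of 17 ciliated cell markers 7 fell and none rose, beside 21.9% of all genes that fell. With the ratios 2 fell, a smaller share than the 14.8% of all genes. Tppp3, a tubulin-binding protein of ciliated cells, was at 485, 614 and 702 in 24-week mice, against 704, 782 and 826 in 2-week mice (log2 change -0.37, SE 0.08, adjusted p = 0.000394), and had an adjusted p of 0.0921 with the ratios. Of 22 endothelial markers 9 fell and 2 rose, and with the ratios 5 fell and 2 rose. The tight junction gene Cldn5 was at 672, 813 and 907 in 24-week mice, against 944, 1181 and 1253 in 2-week mice (log2 change -0.51, SE 0.09, adjusted p = 6.24e-06), the capillary carbonic anhydrase Car4 fell (log2 change -0.41, SE 0.06, adjusted p = 1.78e-07), and so did the adhesion gene Pecam1 (log2 change -0.32, SE 0.07, adjusted p = 9.70e-05). None of 11 goblet and mucus genes was called (median -0.27).

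Genes of detoxification and lipid synthesis fell in part as well, beside 21.9% of all genes that fell, and 14.8% with the ratios. Of 24 NRF2 and glutathione genes 10 fell and 2 rose, with 5 lower and 2 higher with the ratios. The epithelial glutathione peroxidase Gpx2 was at 80.8, 103 and 129.6 in 24-week mice, against 158.3, 171 and 193 in 2-week mice (log2 change -0.65, SE 0.08, adjusted p = 1.12e-08), and the glutathione transferase Gsta2 fell (log2 change -0.50, SE 0.10, adjusted p = 6.85e-05). The quinone reductase Nqo1 fell (log2 change -0.38, SE 0.10, adjusted p = 0.0021), but was not called with the ratios (adjusted p = 0.202). Of 18 cholesterol synthesis genes 8 fell and 1 rose, and 7 fell with the ratios. Fdft1, squalene synthase, was at 241, 260.3 and 298 in 24-week mice, against 331, 412 and 478 in 2-week mice (log2 change -0.59, SE 0.10, adjusted p = 2.29e-06). Of 16 glycolysis genes 8 fell and 2 rose, and 2 rose and 4 fell with the ratios. Among the falls was Tpi1, triosephosphate isomerase (log2 change -0.39, SE 0.05, adjusted p = 6.57e-09).

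Of 24 interferon response genes 7 fell and 1 rose, beside 21.9% of all genes that fell. With the ratios 6 fell and none rose, beside 14.8% of all genes that fell. Gbp2, a guanylate-binding protein induced by interferon gamma, was at 282, 322 and 367 in 24-week mice, against 383, 478 and 610 in 2-week mice (log2 change -0.55, SE 0.10, adjusted p = 3.11e-05), without overlap. The related GTPase Igtp was at 176, 257 and 286 in 24-week mice, against 230, 377 and 724 in 2-week mice (log2 change -0.62, SE 0.20, adjusted p = 0.0131), with overlap. The antiviral gene Rsad2 was the one that rose (log2 change 0.54, SE 0.18, adjusted p = 0.0131), with an adjusted p of 0.16 with the ratios and 0.0916 without replicate 4 of the 2-week group. Of 28 cell cycle genes 4 fell, a smaller share than the 21.9% of all genes that fell, and none rose. Pcna, the sliding clamp of DNA replication, was at 479, 546 and 642 in 24-week mice, against 646, 751 and 777 in 2-week mice (log2 change -0.41, SE 0.07, adjusted p = 2.11e-06). The proliferation marker Mki67 was at 49.0, 63.7 and 106 in 24-week mice, against 49.9, 74.6 and 90.2 in 2-week mice and was not called (log2 change -0.06, adjusted p = 0.793).

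The same weeks under smoke gave 2759 called genes, 18.4% of those tested, with 1469 higher and 1290 lower at 24 weeks. Of the 2813 genes that rose in forced air, 813 (28.9%) rose in smoke as well and 14 fell, beside 9.77% of all genes that rose in smoke. Of the 3296 that fell, 895 (27.2%) fell in smoke and 11 rose, beside 8.58% of all genes that fell in smoke. The shared genes make up 55.3% of the smoke rises and 69.4% of the smoke falls. Of the called forced air genes 82.9% had the same sign in smoke, with a median absolute log2 change of 0.13 there. The share of the same sign over all genes was not computed. A total of 586 rises and 778 falls were called in forced air, in forced air with the ratios as covariates, and in smoke. Setd1b, Npas2, Ltbp4 and the immunoglobulin genes Ighm and Jchain were among these rises, and Tcap, Ddc, Olfml3 and Ndnf among the falls.

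The time change in forced air minus that in smoke was called for 964 genes (6.41%), 386 higher and 578 lower, and for 263 with the ratios as covariates. Within the middle range of title numbers it was called for 29. The count rests on single arrays: leaving out 1 array gave from 433 to 1669 genes. It was above 1.5 times the full count without replicate 1 of forced air at 24 weeks (1614 genes) or replicate 5 of smoke at 24 weeks (1669). It was under the full count by more than 1.5 times without replicate 5 of forced air at 24 weeks (597), replicate 4 of forced air at 2 weeks (459), replicates 1, 2 or 6 of smoke at 24 weeks (522, 609 and 526), and replicates 2 or 4 of smoke at 2 weeks (433 and 562). Lox, Ltbp4 and Col8a1 rose more in forced air (log2 difference 0.64, 0.48 and 0.62, adjusted p = 0.00735, 0.00748 and 0.00784), and were called with the ratios too (adjusted p = 0.0095, 0.0333 and 0.0399). Col3a1 fell in forced air and had medians of 987 in 24-week and 1045 in 2-week smoke-exposed mice (log2 difference -0.59, adjusted p = 0.00748; 0.0368 with the ratios). Igfbp2, Ndnf, Lgals3 and Gpx2 differed likewise (log2 differences -0.86, -0.55, -0.69 and -0.58), and the adjusted p with the ratios was at most 0.018 for these 4. The median Lox signal was 480.4 in 24-week and 431 in 2-week smoke-exposed mice. The untreated median of 498 lies above the medians of both forced air groups.

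**Figure D4:**
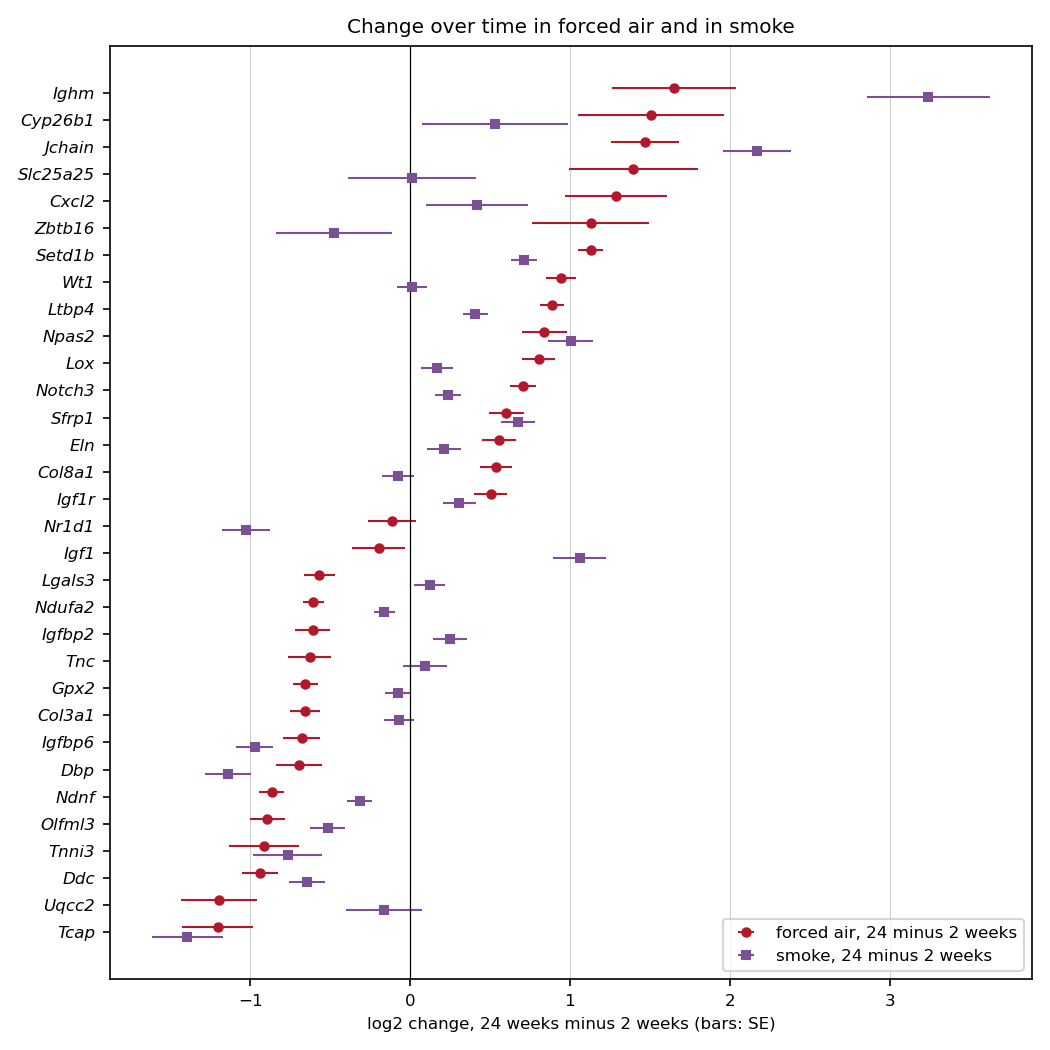
Log2 change between 24 and 2 weeks of 32 named genes with its SE, in forced air (circles) and in smoke (squares), ordered by the forced air change. Wt1, Lox, Igf1, Nr1d1, Igfbp2 and Col3a1 lie apart between the exposures, while Npas2, Sfrp1, Tnni3 and Tcap lie close.

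Mice with 12 weeks of forced air give a time point between the 2 groups. For 5004 of the 6109 called genes the 12-week mean lay between the means of 2 and 24 weeks, and the median share of the change present at 12 weeks was 0.38. These genes were chosen because their means at 2 and 24 weeks lie apart, which by itself favours a 12-week mean between them. The count was not made over all genes, so that no order in time is drawn from it. Some genes had most of their change by then: the medians at 2, 12 and 24 weeks were 1007, 636 and 614 for Col3a1 and 66.8, 38.3 and 40.0 for Tnc. Others had little or none: the medians were 26.3, 25.2 and 60.7 for Wt1 and 936, 979 and 604 for Dbp. Lox had 236, 275 and 421, and Ndnf 636, 474 and 378. The Gapdh 3′/5′ ratio of the 12-week arrays ran from 1.58 to 2.42. Its median of 1.75 also lay between those of the 24-week (1.505) and 2-week (1.85) arrays, and its part in these values was not tested.

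**Figure D5:**
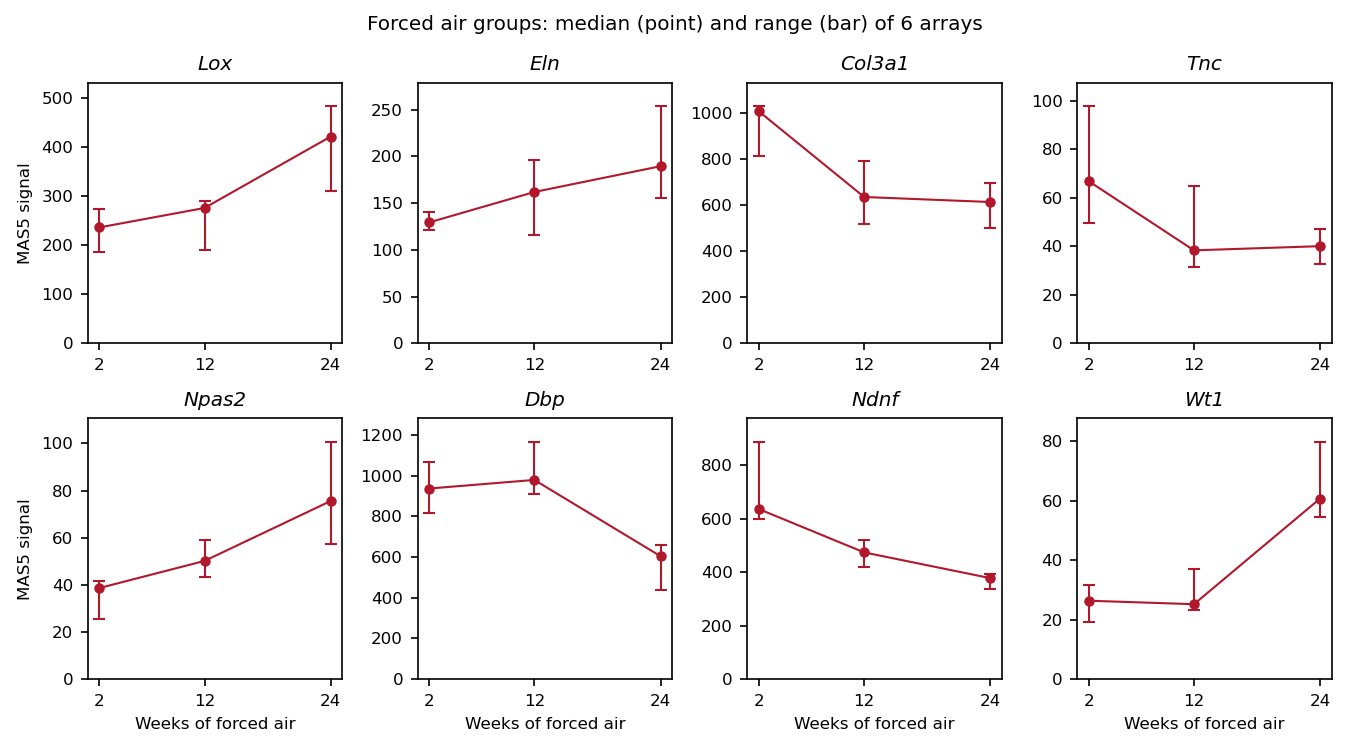
Median MAS5 signal (points) and range (bars) of 6 arrays at 2, 12 and 24 weeks of forced air for 8 genes, on linear axes from 0. Col3a1 and Tnc are near their 24-week level at 12 weeks, and Wt1 and Dbp near their 2-week level.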

How the data were processed

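RNA of 53 lung samples was measured on 1 array each. Samples were randomized before extraction and 50 ng of total RNA was amplified, per the labels' protocols. The authors deposited MAS5 signal intensity on a linear scale, per the submitters' processing notes (version not given in the sources used here), and a detection p-value per probe set. The deposited signals had a 2% trimmed mean of 150 on every array. Of 45101 probe sets, 35615 were kept as detected (p under 0.05) in 1 group or more, on 50% of its arrays at the least, and the brightest of a gene was kept, giving 15030 genes. Log2(signal + 16) of all 53 arrays in 9 groups was fitted with limma 3.58.1 in R 4.3.3 (eBayes with trend, two-sided, Benjamini-Hochberg per comparison, called under 0.05). Fold changes of dim genes are understated by the added 16. On simulated data of 15030 genes 53% of changes of 0.3 and 92% of 0.6 (log2) were recovered. There 100 genes changed at each size, with independent noise and no shift of 3′/5′ ratios. Far more genes were called in the real comparison, so that these shares are not its power. Genes named were the 12 largest rises and falls, up to 4 called members of each list with the largest change, and a fixed panel. Pou2af1, Cd79a, Myl7, Myh6, Rora, Cry2, Tef, Adipoq, Unc45b and Map1b were chosen after their values were seen. Of the genes this rule names, Plet1, Npc2, Cyp51 and Sox11 had another probe set called in the opposite direction, and they are not described. Members and lists were chosen with earlier results of these data known. The exclusion of replicate 4 and of high-ratio arrays, the fit of compared groups with ratios, and the block of numbers in the titles, were added after seeing the data. No pair of arrays correlated above 0.9965. Array numbers within a group follow accession order. Promoters are RefSeq's, on GRCm38.p6.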

Additional observations from a re-analysis of the deposited data

Results flagged for a closer look

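Single arrays lay far from the other 5 of their group in 17 of 226 groups of 6 checked, by the gap to the nearest array over the whole range. For independent groups chance would give about 1 in 20. These groups share arrays, and some genes, Adipoq among them, were chosen after their values were seen. The count is therefore not to be read against that rate. Replicate 2 at 2 weeks of forced air had Igkv19-93 highest with 140.6 (others 45.8 to 69.7), Igkv9-120 highest with 232 (others 54.7 to 97.3), C3ar1 highest with 65.1 (others 41.4 to 48.7), Zmat3 highest with 304 (others 214 to 243) and Car4 lowest with 996 (others 1154 to 1258). Replicate 4 at 24 weeks of forced air had Pou2af1 highest with 824 (others 279.5 to 419), Prg2 highest with 70.4 (others 18.7 to 26.9), Myl7 lowest with 373 (others 698 to 919), Ucp1 highest with 175 (others 6.29 to 10.7) and Adipoq highest with 1113 (others 59.2 to 116). Replicate 5 at 24 weeks of forced air had Pdk4 lowest with 903 (others 1203 to 1324) and Igtp lowest with 176 (others 240.4 to 286). Replicate 1 at 24 weeks of forced air had Zmat3 highest with 435 (others 353 to 368). Replicate 4 at 2 weeks of forced air had Ddc lowest with 51.5 (others 71.5 to 78.7) and Taf10 highest with 480.3 (others 337 to 374). Replicate 6 at 2 weeks of forced air had Ager highest with 3890 (others 2211 to 2726) and Sftpc highest with 4918 (others 2929 to 3352).

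The time change differed between forced air and smoke for 36 of the genes described, by limma's test of the difference with Benjamini-Hochberg adjustment over all genes. Values are log2 changes in forced air minus those in smoke, with 6 arrays in each of 4 groups. Of these genes 17 were still called with the 3′/5′ ratios as covariates. Among them the difference was above 0 for Wt1 0.93 (adjusted p = 2.14e-05), Aldh1a2 0.45 (adjusted p = 0.0189), Lox 0.64 (adjusted p = 0.00735), Ltbp4 0.48 (adjusted p = 0.00748), Col8a1 0.62 (adjusted p = 0.00784), Notch3 0.47 (adjusted p = 0.0121) and Nr1d1 0.91 (adjusted p = 0.00804). It was below 0 for Lgals3 -0.69 (adjusted p = 0.00254), Col3a1 -0.59 (adjusted p = 0.00748), Igf1 -1.26 (adjusted p = 0.00145), Igfbp2 -0.86 (adjusted p = 0.000851), Ndnf -0.55 (adjusted p = 0.00265), Alyref -0.56 (adjusted p = 0.0119), Ndufa2 -0.44 (adjusted p = 0.00439), Atp6v0d1 -0.38 (adjusted p = 0.00439), Gpx2 -0.58 (adjusted p = 0.00225) and Pcna -0.41 (adjusted p = 0.00748). A further 19 were not called with the ratios. Of those the difference was above 0 for Cry2 0.33 (adjusted p = 0.0354), Zbtb16 1.61 (adjusted p = 0.049), Ppargc1a 0.56 (adjusted p = 0.019), Setd1b 0.42 (adjusted p = 0.0214), Unc45b 0.33 (adjusted p = 0.0258), Zbtb46 0.33 (adjusted p = 0.0485) and Atp2a1 0.47 (adjusted p = 0.0354). It was below 0 for Igha -0.84 (adjusted p = 0.0404), Marco -0.82 (adjusted p = 0.0462), H2-Ab1 -0.45 (adjusted p = 0.0189), Tnc -0.72 (adjusted p = 0.0193), Mmp2 -0.57 (adjusted p = 0.0376), Fbln5 -0.22 (adjusted p = 0.0475), Taf10 -0.51 (adjusted p = 0.0183), Ndufb5 -0.38 (adjusted p = 0.0265), Psmc1 -0.41 (adjusted p = 0.0128), Rpl8 -0.30 (adjusted p = 0.0444), Rplp0 -0.43 (adjusted p = 0.0247) and Sftpd -0.35 (adjusted p = 0.0493).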

How the results depend on the processing

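With another pseudocount (6130 genes called), no detection filter (6037), the compared groups alone (5654), title numbers as covariate (5402) or as ranges in a block (5964), the block with the 3′/5′ ratios (4738) or without 3 high-ratio arrays of the 2-week group (4235), the count of forced air calls stayed within 1.5 times of 6109. Leaving out 1 array gave 5343 to 6254. Quantile normalization called 2501 higher and 3877 lower, beside 2813 and 3296. All kept probe sets gave 10879 calls in forced air (6083 higher and 4796 lower) and 1662 in the difference. A log2 change of at least 1 left 18 genes in forced air, 49 in smoke and 14 in the difference. The ratios as covariates left 3734 in forced air and 263 in the difference. The middle range of title numbers, with fewer arrays, left 2554, 1402 and 29. The compared groups alone with the ratios left 3 in forced air, 1502 in smoke and 0.765% of genes, beside 6.41%, in the difference. The difference had 1496 calls after quantile normalization, 533 with the title number, 329 without the 3 arrays, and 433 to 1669 without 1 array. Smoke had 1994 to 2742 without 1 array. With the ratios Ager and Sftpc turned to 0.00992 and 0.0443 on the log2 scale, and with the block too to 0.0478 and 0.0766. The cause was not tested in any of these cases. Of 113 genes described, 104 were called, and 90 of these kept the call whichever array was left out. With the number after the letter in the titles as a replicate block over all arrays, 4807 genes were called in forced air, 2039 in smoke and 757 in the difference. The forced air groups share 2 of these numbers, 4 and 5, and nothing says that a number marks an animal, a litter or a batch. The deviations of the arrays that share them correlated at 0.23 and 0.14, within the range of the other pairs (-0.28 to 0.25). The number of arrays limits the precision.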
